A study of Homo sapiens with 16 samples.

Results

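The Fc receptors of monocytes and macrophages were followed as 7 genes: FCGR1A, FCGR2A, FCGR2B, FCGR3A, FCER1G, FCGRT and FCAR. They were found as the rows of a gene count table whose Ensembl identifier carries one of these symbols in GENCODE, 7 of 60676 rows, and all 7 were among the 16503 genes that passed the filter on low counts. RNA sequencing had been done on THP-1, a cell line from an acute monocytic leukemia that turns into macrophage-like cells when given phorbol-12-myristate-13-acetate (PMA). There were 8 groups of 2 libraries: shUHRF1, shDNMT1, shDNMT3B and shNC cells, each after 48 h in 100 ng/ml PMA or in the solvent dimethyl sulfoxide (DMSO). The hairpins against UHRF1, DNMT1 or DNMT3B were carried by a pLKO.1 lentiviral vector and infected cells were selected in puromycin. shNC is the hairpin control line, and whether a line was a clone or a pool is not given in the sources used here. The description disagreed with the title in 12 of 16 samples, so each column of counts was assigned by its own name. That name gives the line and, for the PMA groups, PMA. Columns without PMA in the name were read as DMSO. Nothing in the labels says that the 2 libraries of a group came from separate cultures, so p-values measure only the spread between these libraries.

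Fc receptors bind the constant end of antibodies and tie them to phagocytes. FCGR1A (CD64) is the high-affinity receptor for IgG, FCGR2A (CD32A) and FCGR3A (CD16A) are low-affinity activating receptors, FCGR2B (CD32B) is the inhibitory one, and FCAR (CD89) binds IgA. FCER1G is the gamma chain that CD64, CD16A and CD89 need for signaling, whereas CD32A signals through its own tail and CD32B carries an inhibitory motif there. FCGRT encodes the heavy chain of FcRn, which pairs with beta-2-microglobulin inside the cell and returns IgG and albumin to the surface.

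In GENCODE 44 coordinates (GRCh38), 5 of the genes lie on chromosome 1: FCGR1A at chr1:149782671-149791675, FCER1G at chr1:161215234-161220699, FCGR2A at chr1:161505430-161524013, FCGR3A at chr1:161541759-161550968 and FCGR2B at chr1:161663143-161678654. The other 2 lie on chromosome 19, FCGRT at chr19:49506816-49526428 and FCAR at chr19:54874235-54891420. Only FCGR3A is on the minus strand. In shNC, FCGR1A and FCGR2A were lower after PMA, and FCGR2B and FCER1G were 2 of the higher members. The bases before the first exon are shown for these 2 pairs, each of which shares a direction of change. They come from RefSeq promoter windows of GRCh38.p14, plus strand, 5′ to 3′, shortened to end before any annotated exon, at chr1:149782444-149782670, chr1:161505207-161505429, chr1:161662893-161663142 and chr1:161215045-161215233. Capitals mark GAGGAA (the core of PU.1 sites, read on either strand) and TTCNNNGAA (the gamma-activated sequence).
FCGR1A: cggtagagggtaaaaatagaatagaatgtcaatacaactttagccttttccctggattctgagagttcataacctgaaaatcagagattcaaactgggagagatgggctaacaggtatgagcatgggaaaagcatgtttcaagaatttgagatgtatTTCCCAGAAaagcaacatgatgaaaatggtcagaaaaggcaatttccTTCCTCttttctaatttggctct
FCGR2A: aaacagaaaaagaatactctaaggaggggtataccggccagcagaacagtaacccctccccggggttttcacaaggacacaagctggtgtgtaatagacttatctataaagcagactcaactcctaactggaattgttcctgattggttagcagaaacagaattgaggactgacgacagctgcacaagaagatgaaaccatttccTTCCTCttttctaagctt
FCGR2B: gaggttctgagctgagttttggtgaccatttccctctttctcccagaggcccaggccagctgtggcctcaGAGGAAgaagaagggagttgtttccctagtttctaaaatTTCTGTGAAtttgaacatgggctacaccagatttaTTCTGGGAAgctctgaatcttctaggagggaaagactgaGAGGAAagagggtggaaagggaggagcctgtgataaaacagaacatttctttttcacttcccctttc
FCER1G: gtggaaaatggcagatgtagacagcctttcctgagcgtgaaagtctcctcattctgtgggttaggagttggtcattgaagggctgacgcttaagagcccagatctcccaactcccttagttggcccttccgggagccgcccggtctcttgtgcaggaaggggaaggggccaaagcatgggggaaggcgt

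The windows of FCGR1A and FCGR2A shared an unbroken run of 20 bases, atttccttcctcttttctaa, which starts 52 bases before the RefSeq start of FCGR1A and 51 bases before that of FCGR2A. It was found in 2 of 35116 promoter windows on either strand, those of FCGR1A and FCGR2A, and every other pair of the 4 sequences shared at most 9 bases in a row. GAGGAA occurred in 27.9% of all windows of 300 bases and TTCNNNGAA in 7.66%. TGANTCA, the AP-1 site known as the phorbol ester response element, occurred in 7.71% of all windows and, among the windows of the 6 members other than FCAR, in 1 alone, another, upstream window of FCGR2B. FCAR was not scanned. These windows hold few CpG dinucleotides, the sites that DNMT1 and DNMT3B methylate: 1 in the 300 bases of FCGR1A, 4 in FCGR2A, 1 in the FCGR2B window shown, 9 in FCER1G, 7 in FCGRT and 2 to 7 in the 5 windows of FCGR3A, beside a median of 14 over all windows. A match is a description of letters, and binding or methylation was not measured here.

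Total counts ran between 13883556 and 23151864 per library, and the 7 genes together took 0.0429% to 0.115% of them. At this depth 3 counts over a group equal 0.072 to 0.0949 CPM (read counts per library scaled to a common size by the trimmed mean of M values, TMM). Libraries with the same replicate number deviated together in 28 of 28 pairs of groups, and mitochondrial transcripts took 7.71% to 29.0% of counts in replicate 1 and 3.92% to 14.5% in replicate 2. FCGR1A, FCGR2A, FCER1G and FCGRT were higher in replicate 1 in 8 of 8 groups, while FCAR was higher in replicate 1 in 0 of 8. The RNA of the hairpin targets did not follow the labels after PMA, while the study checked its knockdowns on protein by western blot. UHRF1 was at 9.62 and 12.2 CPM in the PMA libraries labelled shUHRF1, against 4.62 and 7.43 CPM in shNC, DNMT1 was at 84.1 and 99.7 CPM in those labelled shDNMT1, against 56.9 and 78.0 CPM in shNC, and DNMT3B was at 2.74 and 3.19 CPM in those labelled shDNMT3B, against 1.26 and 1.59 CPM in shNC. In DMSO each target had a negative log2 fold change in its own line (-0.36, -0.25 and -0.48). None was called by edgeR (adjusted p = 0.605, 0.787 and 0.212). UHRF1 (-0.38) and DNMT1 (-0.39) were lower still in shDNMT3B, so for them these values do not single out the own line. The lines are therefore named by their labels throughout. Monocyte and macrophage markers summed to 2020 to 2820 CPM in the 8 PMA libraries, against 293 to 427 CPM in the 8 DMSO libraries. MRC1 was near 0 (5 counts in all) and CD14 at 19.0 CPM or less. CSF1R and CD68 held most of the sum after PMA, with 24108 and 24071 counts in the first shNC PMA library. LYZ, on the same list, was lower after PMA in each line, with 636 and 305 counts in PMA, against 1441 and 1277 in DMSO, in shNC. Of 5 natural killer cell markers, which matter for FCGR3A, KLRD1 had 1 count and PRF1 had 6 in the whole series, while NCAM1 lay between 17.7 and 177 CPM, NKG7 between 4.55 and 24.3 CPM and GNLY between 0.0476 and 46.6 CPM. The 3 T cell markers summed to 0.158 CPM at most. The first shNC DMSO library held 488 CPM of the globin genes HBB, HBA1 and HBA2, against at most 2.23 CPM in any other library, and 29 of the 43 counts of the neutrophil gene FCGR3B. Without this library all 7 PMA calls in shNC stood.

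Per kilobase of exon, the gamma chain FCER1G led the family after PMA in all 4 lines, and FCGRT came second. In shNC cells after PMA the means were 273 ± 92 CPM per kb for FCER1G, 86.8 ± 21.5 for FCGRT, 11.4 ± 4.19 for FCGR1A, 8.87 ± 0.953 for FCAR, 5.15 ± 0.622 for FCGR2A, 1.71 ± 0.595 for FCGR2B and 0.293 ± 0.126 for FCGR3A (SD, n = 2). Among neighbours in that order, the ranges of FCGR1A and FCAR overlapped and the others did not. In shNC cells in DMSO the order was FCER1G (109 ± 40.9 CPM per kb), FCGR1A (59.6 ± 30), FCGRT (36.8 ± 1.59), FCGR2A (19.3 ± 3.86), FCAR (0.342 ± 0.194), FCGR2B (0.334 ± 0.0313) and FCGR3A (0.0159 ± 0.0225), and FCER1G overlapped FCGR1A, as FCAR did FCGR2B. The line changed the order after PMA: FCAR was the third gene in cells labelled shUHRF1, at 19.8 ± 0.275 CPM per kb, and FCGR3A, the last in shNC, reached 4.19 ± 0.571 CPM per kb in cells labelled shDNMT1, where its range overlapped those of FCGR2A and FCAR.

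**Figure D1:**
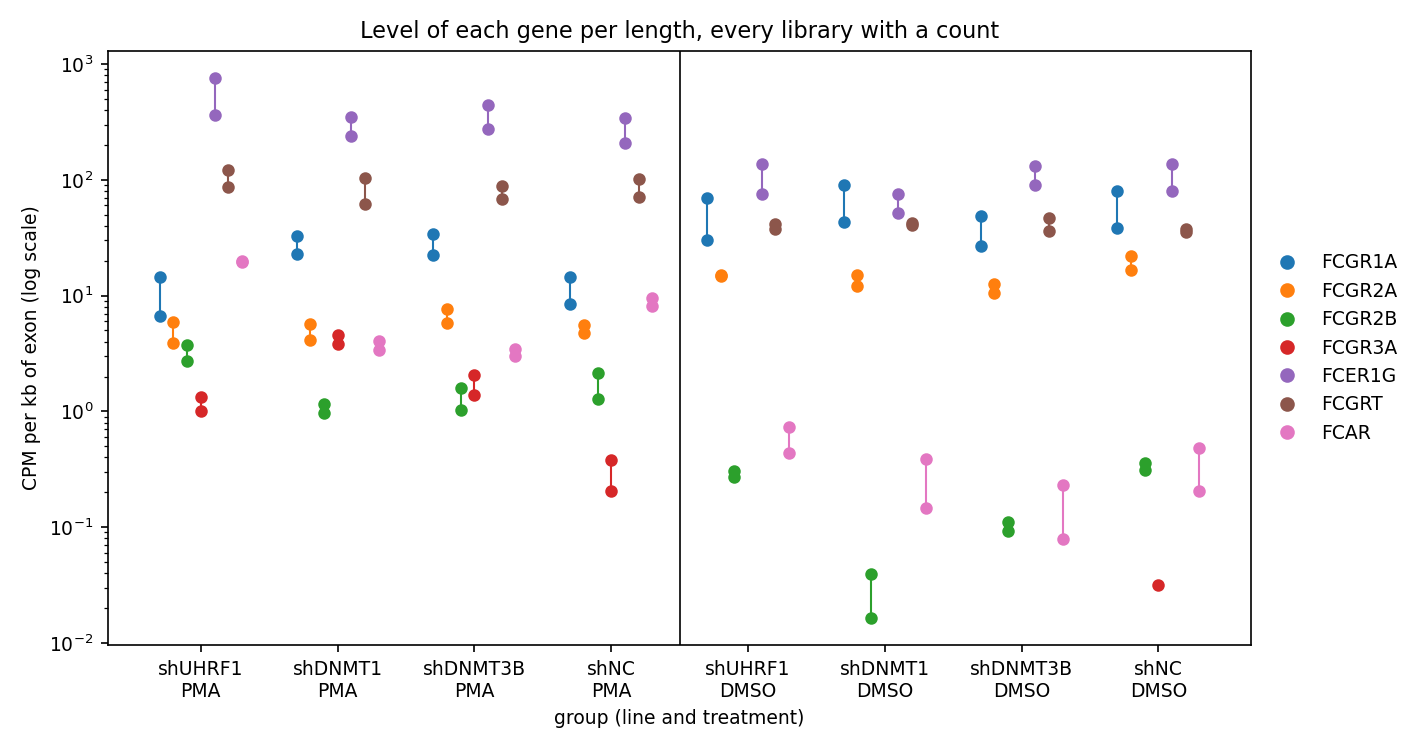
CPM per kilobase of exon (log scale) of the 7 genes in the 8 groups, PMA groups left of the line and DMSO groups right of it. Points are libraries, a bar joins the 2 libraries of a group, and libraries without a count are not drawn. FCER1G lies highest in every PMA group, and FCGR3A has a single point in DMSO, in shNC.

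The first comparison asks how the Fc receptors change as each line differentiates. PMA split them: FCGR2B, FCGR3A, FCER1G, FCGRT and FCAR rose in all 4 lines, FCGR2A fell in all 4, and FCGR1A fell in shUHRF1 and shNC. By edgeR's quasi-likelihood test 5 of 7 were called higher in each line, beside 29.4% of all genes tested in cells labelled shUHRF1, 28.6% in shDNMT1, 25.2% in shDNMT3B and 28.4% in shNC. Called lower were 2 of 7 in shUHRF1 (25.5% of all genes), 1 in shDNMT1 (24.1%), 1 in shDNMT3B (19.7%) and 2 in shNC (26.0%). The median log2 fold change of the 7 was 2.4, 2.21, 1.70 and 1.32 in that order of lines, with that of all genes within 0.02 of 0. With the replicate number as a block FCGR1A was called in every line, which made 2 of 7 lower in shDNMT1 (31.0% of all genes under the block) and in shDNMT3B (27.5%). In such bulk libraries fewer cells that carry a receptor and less RNA per cell cannot be told apart.

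**Figure D2:**
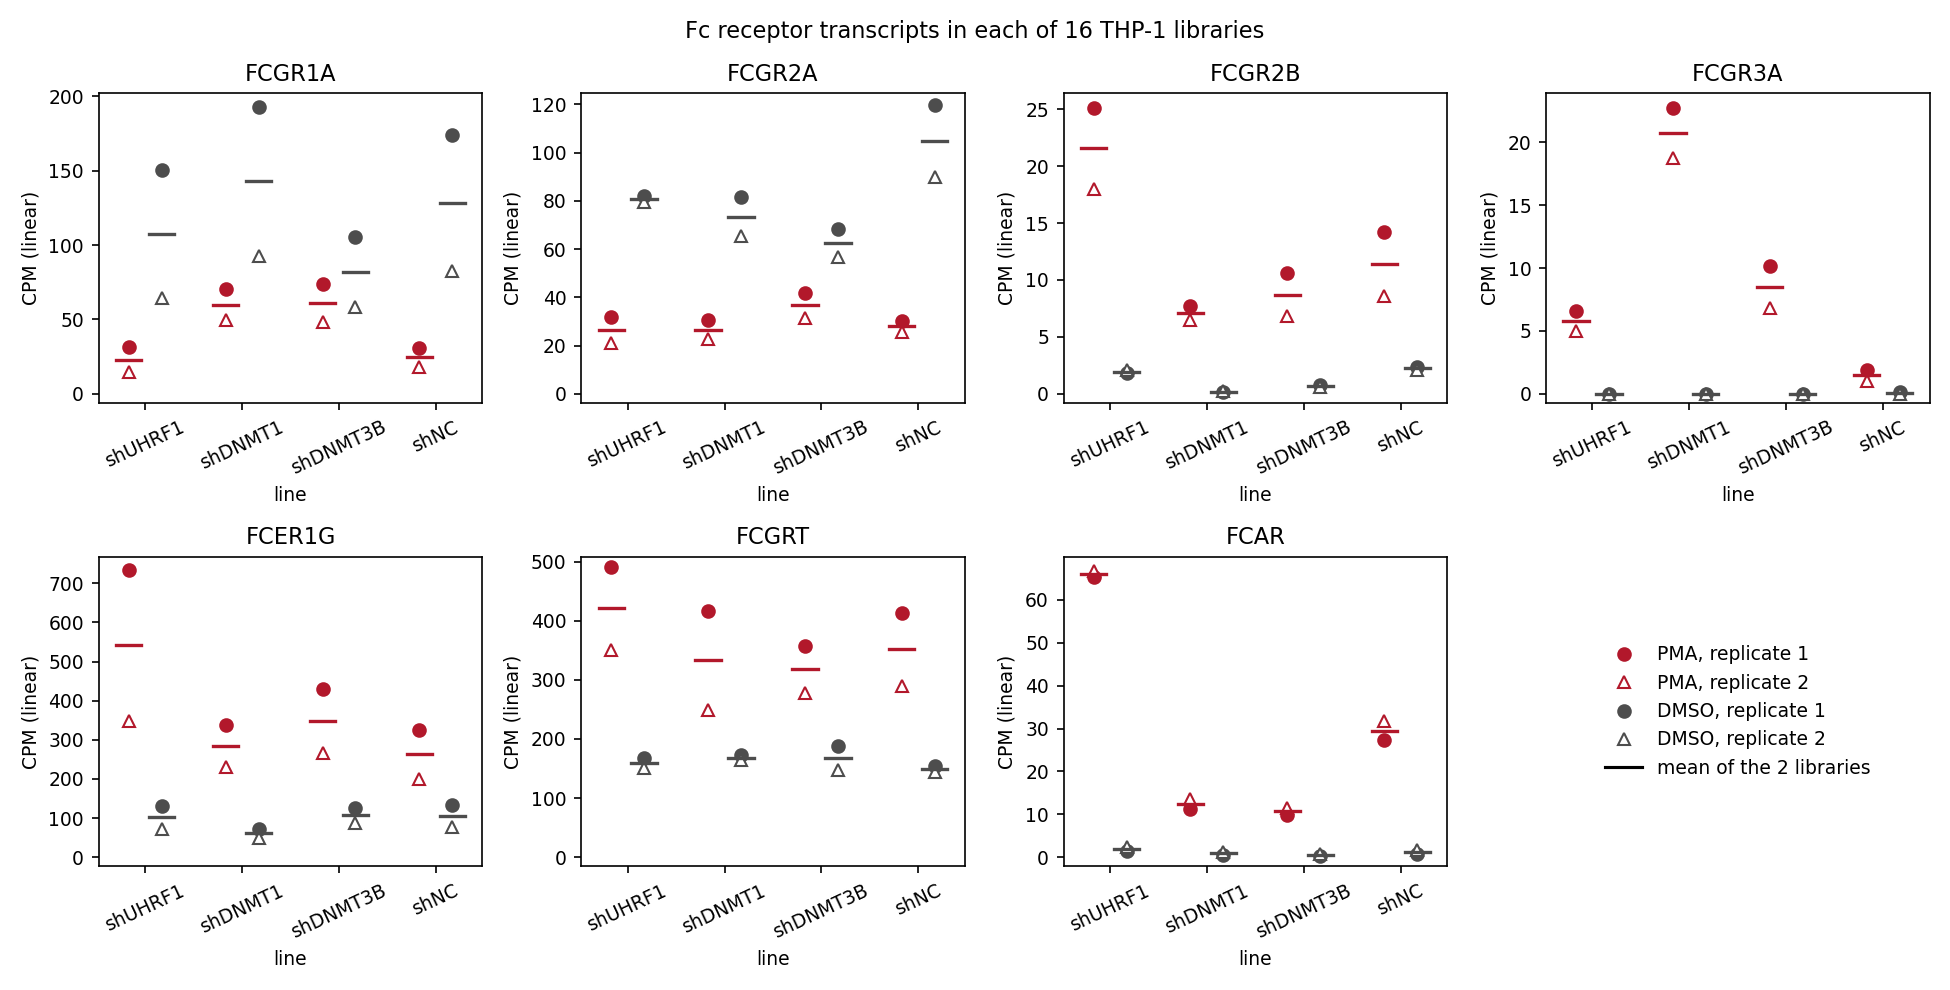
CPM (linear scale, an axis for each gene) of the 7 Fc receptor genes in each of the 16 libraries, PMA (red) left of DMSO (grey) within each line. Circles are replicate 1, triangles replicate 2 and bars the mean of 2. FCGR2A lies lower and FCGR2B, FCGR3A, FCER1G, FCGRT and FCAR lie higher in PMA in each line, while the FCGR1A libraries of shDNMT3B overlap.

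FCGR1A, the high-affinity IgG receptor, fell in shUHRF1 and shNC and was not called in shDNMT1 and shDNMT3B. It had 31.2 and 14.5 CPM in PMA, against 150.6 and 64.5 CPM in DMSO, in cells labelled shUHRF1. In shNC the values were 30.9 and 18.1 CPM in PMA, against 174.1 and 82.7 CPM in DMSO. In both lines each PMA library was below each DMSO library. Cells labelled shDNMT1 had 70.2 and 49.3 CPM in PMA, against 193.0 and 92.5 CPM in DMSO, and those labelled shDNMT3B had 73.9 and 47.9 CPM in PMA, against 105.5 and 58.1 CPM in DMSO. The groups of shDNMT1 did not overlap and those of shDNMT3B did. The log2 fold changes were -2.23 (SE 0.559, adjusted p = 0.00458) in shUHRF1, -1.26 (SE 0.538, adjusted p = 0.0665) in shDNMT1, -0.42 (SE 0.533, adjusted p = 0.546) in shDNMT3B and -2.38 (SE 0.562, adjusted p = 0.00307) in shNC. Under the replicate block the 2 uncalled values became -1.18 (adjusted p = 1.6e-07) and -0.39 (adjusted p = 0.0226). The shUHRF1 call was lost without DMSO replicate 1 (-1.50, adjusted p = 0.0611) or PMA replicate 2 (-1.77, adjusted p = 0.0519). Reads of FCGR1A can be shared with its near copies FCGR1BP and FCGR1CP. FCGR1BP had 3.52 and 2.67 CPM in PMA, against 46.7 and 27.3 CPM in DMSO, in shNC, and with the 3 genes summed FCGR1A was called lower in shDNMT1 too (-1.32, adjusted p = 0.0451).

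FCGR2A, the activating receptor with its own signaling tail, fell in all 4 lines. It had 31.8 and 21.2 CPM in PMA, against 81.9 and 79.4 CPM in DMSO, in cells labelled shUHRF1, and 30.6 and 22.6 CPM in PMA, against 81.5 and 65.3 CPM in DMSO, in shDNMT1. Cells labelled shDNMT3B had 41.9 and 31.4 CPM in PMA, against 68.3 and 56.9 CPM in DMSO, and shNC had 30.3 and 25.6 CPM in PMA, against 119.6 and 89.99 CPM in DMSO. No PMA library overlapped the DMSO libraries of its line. The log2 fold changes were -1.604 (adjusted p = 1.09e-04), -1.46 (adjusted p = 2.54e-04), -0.77 (adjusted p = 0.0187) and -1.91 (adjusted p = 2.72e-05) in that order, with SE 0.238 to 0.245. In shDNMT3B the call was lost without DMSO replicate 1 (-0.66, adjusted p = 0.102) or PMA replicate 2 (-0.57, adjusted p = 0.161).

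FCGR3A (CD16A), which marks non-classical monocytes, tissue macrophages and natural killer cells, was all but undetected in DMSO and appeared after PMA. It had 22.8 and 18.8 CPM in PMA (476 and 274 counts), against 0 counts in both DMSO libraries, in cells labelled shDNMT1. It had 10.2 and 6.81 CPM in PMA in shDNMT3B and 6.62 and 5.01 CPM in PMA in shUHRF1, again against 0 counts in DMSO. In shNC it had 1.89 and 1.01 CPM in PMA, against 0.158 and 0 CPM in DMSO, and all 3 DMSO counts stood in the library with globin reads. Every PMA library was thus above every DMSO library. Set against the 3 counts per group that 0 counts allow, levels were at least 265-fold higher after PMA in shDNMT1, at least 111-fold in shDNMT3B and at least 81.9-fold in shUHRF1, and the shNC ratio was 19.2 with a 95% counting interval between 6.19 and 96.1. The adjusted p was 1.32e-05 in shUHRF1, 2.68e-06 in shDNMT1, 1.18e-05 in shDNMT3B and 9.94e-04 in shNC. FCGR3B is nearly identical to FCGR3A, and with both summed the shNC call was lost (log2 fold change 0.81, adjusted p = 0.476), with 29 of the 43 FCGR3B counts lying in that same DMSO library. The natural killer cell marker GNLY was also higher after PMA: it had 35.2 and 20.3 CPM in PMA, against 0.326 and 0.104 CPM in DMSO, in shDNMT1, and 7.67 and 5.85 CPM in PMA, against 0.210 and 0.0532 CPM in DMSO, in shNC. The 5 markers summed to 65.8 to 231 CPM in the 8 PMA libraries, against 34.1 to 78.2 CPM in the 8 DMSO libraries, with NKG7 at 4.55 to 13.2 CPM in PMA, against 7.48 to 24.3 CPM in DMSO, and KLRD1 and PRF1 at 0.113 CPM or less. Their part in the FCGR3A rise was not tested.

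FCGR2B, the inhibitory IgG receptor, rose in all 4 lines, with the largest fitted fold in cells labelled shDNMT1. It had 7.69 and 6.50 CPM in PMA, against 0.109 and 0.260 CPM in DMSO (2 and 5 counts), in shDNMT1. In shDNMT3B it had 10.6 and 6.81 CPM in PMA, against 0.740 and 0.611 CPM in DMSO. The DMSO levels of both lines lay below 1 CPM. In shUHRF1 it had 25.1 and 18.0 CPM in PMA, against 1.79 and 2.05 CPM in DMSO, and in shNC 14.2 and 8.59 CPM in PMA, against 2.37 and 2.07 CPM in DMSO. The log2 fold changes were 3.49 ± 0.329 in shUHRF1, 5.21 ± 0.446 in shDNMT1, 3.68 ± 0.368 in shDNMT3B and 2.36 ± 0.322 in shNC (SE), with an adjusted p of 1.6e-06, 8.08e-07, 4.23e-06 and 4.55e-05. Reads may be shared with FCGR2C, which held 157 counts in the whole series.

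FCER1G, the common gamma chain, was the most abundant member per kilobase after PMA and rose in all 4 lines. It had 733 and 349 CPM in PMA, against 132 and 73.1 CPM in DMSO, in cells labelled shUHRF1, and 339 and 230.0 CPM in PMA, against 73.3 and 49.8 CPM in DMSO, in shDNMT1. Cells labelled shDNMT3B had 429.8 and 267 CPM in PMA, against 127 and 87.3 CPM in DMSO, and shNC had 326 and 201 CPM in PMA, against 133 and 77.4 CPM in DMSO. PMA and DMSO libraries did not overlap in any line, and replicate 1 was well above replicate 2 throughout. The log2 fold changes were 2.4 (SE 0.456, adjusted p = 6.69e-04) in shUHRF1, 2.21 (SE 0.454, adjusted p = 0.0013) in shDNMT1, 1.70 (SE 0.446, adjusted p = 0.00764) in shDNMT3B and 1.32 (SE 0.441, adjusted p = 0.0223) in shNC. The shNC call was lost without DMSO replicate 2 (0.99, adjusted p = 0.148), without PMA replicate 1 (0.935, adjusted p = 0.159) and with upper-quartile scaling (1.04, adjusted p = 0.0637). The shDNMT3B call was lost without DMSO replicate 2 (adjusted p = 0.0624) or PMA replicate 1 (adjusted p = 0.0653).

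FCAR, the IgA receptor, rose in all 4 lines. FCGR3A aside, it had the largest fitted fold among the members in shUHRF1, shDNMT3B and shNC. It had 65.4 and 66.7 CPM in PMA, against 1.45 and 2.43 CPM in DMSO, in cells labelled shUHRF1. In shNC it had 27.3 and 31.8 CPM in PMA, against 0.684 and 1.595 CPM in DMSO. The PMA libraries of a line were close to each other here. In shDNMT1 it had 11.2 and 13.6 CPM in PMA, against 0.489 and 1.30 CPM in DMSO, and in shDNMT3B 9.94 and 11.4 CPM in PMA, against 0.264 and 0.763 CPM in DMSO. The log2 fold changes were 5.08 ± 0.419 (adjusted p = 4.48e-07) in shUHRF1, 3.77 ± 0.440 (adjusted p = 1.29e-05) in shDNMT1, 4.35 ± 0.475 (adjusted p = 9.47e-06) in shDNMT3B and 4.69 ± 0.433 (adjusted p = 1.42e-06) in shNC (SE). These folds rest on low DMSO groups, which held between 20 counts in shDNMT3B and 81 in shUHRF1.

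FCGRT, the FcRn heavy chain, rose in every line, by 0.92 to 1.40 on the log2 scale. It had 490.4 and 351 CPM in PMA, against 167 and 151 CPM in DMSO, in cells labelled shUHRF1, and 416 and 249.7 CPM in PMA, against 172 and 165 CPM in DMSO, in shDNMT1. Cells labelled shDNMT3B had 357 and 278.5 CPM in PMA, against 188 and 148 CPM in DMSO, and shNC had 413 and 290.0 CPM in PMA, against 154 and 145 CPM in DMSO. The groups did not overlap in any line. The log2 fold changes were 1.40 (adjusted p = 7.26e-04), 0.98 (adjusted p = 0.00782), 0.92 (adjusted p = 0.0134) and 1.24 (adjusted p = 0.00177) in that order, with SE 0.266 to 0.269. The shDNMT1 call was lost without PMA replicate 1 (0.52, adjusted p = 0.155), and the shDNMT3B call without DMSO replicate 2 (adjusted p = 0.0927), without PMA replicate 1 (adjusted p = 0.1) and with upper-quartile scaling (0.68, adjusted p = 0.0552).

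**Figure D3:**
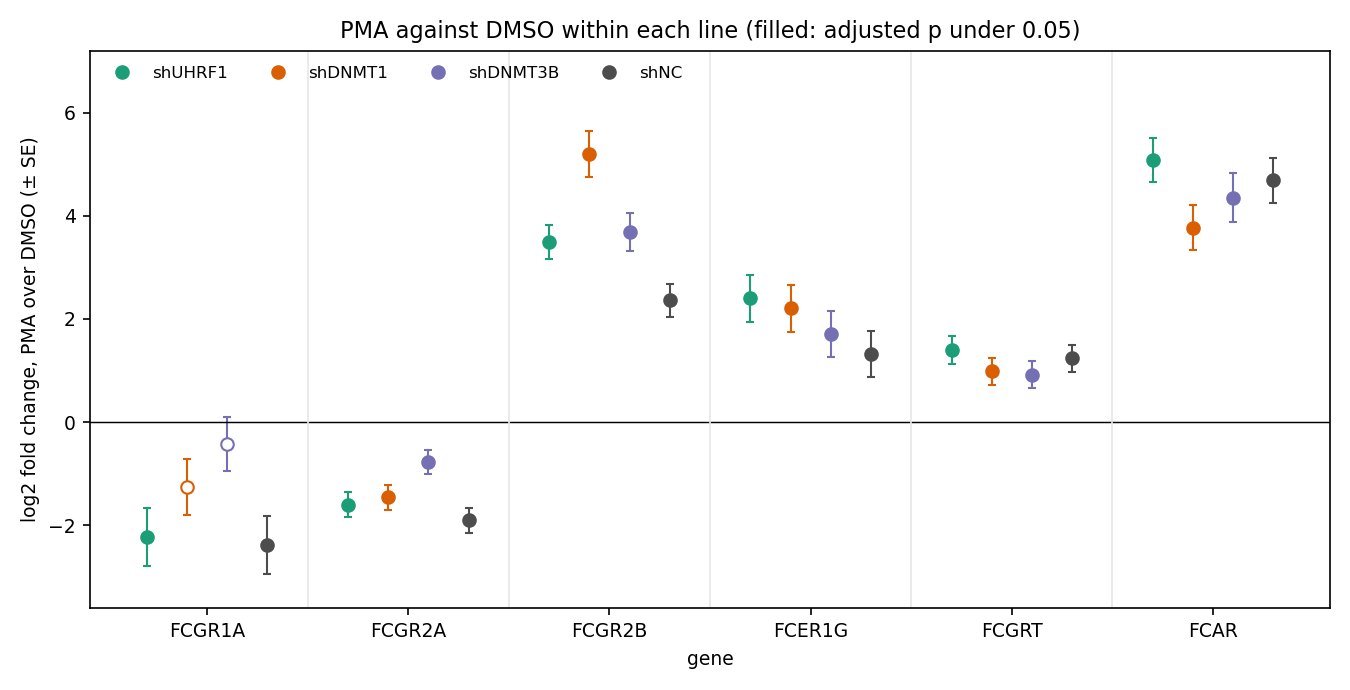
Log2 fold change of PMA over DMSO (points, with bars of 1 SE from edgeR) of 6 genes in the 4 lines, filled where the adjusted p was under 0.05. FCGR3A is left out because its DMSO groups hold 0 to 3 counts. FCGR1A and FCGR2A lie below 0, the FCGR1A values of shDNMT1 and shDNMT3B unfilled, and the other 4 genes above it, FCGR2B between 2.36 in shNC and 5.21 in shDNMT1.

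The second comparison asks whether the hairpin lines differed from shNC before differentiation. All 3 comparisons share the shNC DMSO libraries. In DMSO 0 of 7 members were called in cells labelled shUHRF1, beside 1.31% of all genes, and 1 of 7 in shDNMT1 (3.96%) and in shDNMT3B (4.51%), which was FCGR2B both times. In shUHRF1 edgeR gave 0 members an unadjusted p under 0.05 (13.5% of all genes), and 0 were called by DESeq2 (4.08%) and by an exact test after DEGES scaling, which leaves out likely changed genes (1.28%). FCGR2B had 0.109 and 0.260 CPM in shDNMT1, against 2.37 and 2.07 CPM in shNC, a log2 difference of -3.53 (SE 0.477, adjusted p = 8.43e-04) that missed the threshold when only the libraries compared were fitted (-3.49, adjusted p = 0.0596). In shDNMT3B it was lower by -1.71 (SE 0.385, adjusted p = 0.0246), a call that was lost without any 1 of the 4 libraries compared (adjusted p between 0.0755 and 0.146, log2 fold changes between -1.86 and -1.58), when only these libraries were fitted (-1.67, adjusted p = 0.166) and with FCGR2C added (-1.50, adjusted p = 0.0517). With the block 0 members were called in shUHRF1 (11.5% of all genes), 3 in shDNMT1 (13.6%) and 3 in shDNMT3B (18.7%), all lower. The added ones were FCGR2A (-0.51, adjusted p = 0.00596) and FCER1G (-0.75, adjusted p = 3.57e-04) in shDNMT1, and FCGR1A (-0.62, adjusted p = 0.00354) and FCGR2A (-0.74, adjusted p = 1.4e-04) in shDNMT3B. Without the block their adjusted p was 0.305 and 0.434 in shDNMT1, and 0.579 and 0.104 in shDNMT3B. FCGR2A had 65.3 to 81.5 CPM in shDNMT1 and 56.9 to 68.3 CPM in shDNMT3B, against 89.99 and 119.6 CPM in shNC, with no overlap. FCGR3A gives no comparison here, since its groups hold 0 or 3 counts.

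The third comparison sets the hairpin lines against shNC after PMA, again with shared shNC libraries. FCGR3A was higher in all 3, and FCAR was lower in shDNMT1 and shDNMT3B. Called members were 1 of 7 in cells labelled shUHRF1 (3.69% of all genes), 2 in shDNMT1 (14.8%) and 2 in shDNMT3B (20.3%). FCGR3A had 6.62 and 5.01 CPM in shUHRF1, 22.8 and 18.8 CPM in shDNMT1 and 10.2 and 6.81 CPM in shDNMT3B, against 1.89 and 1.01 CPM in shNC, with no overlap. On the log2 scale it was higher by 1.97 (SE 0.441, adjusted p = 0.042) in shUHRF1, 3.80 (SE 0.447, adjusted p = 4.26e-04) in shDNMT1 and 2.52 (SE 0.440, adjusted p = 0.0037) in shDNMT3B. The shUHRF1 call was lost without any 1 of its 4 libraries (1.62 to 2.52, adjusted p between 0.108 and 0.228), when only these libraries were fitted (1.955, adjusted p = 0.0645) and with FCGR3B added (1.98, adjusted p = 0.243), in 6 of 12 alternatives in all. The shDNMT3B call was lost with FCGR3B added (2.52, adjusted p = 0.0512), whereas the shDNMT1 call stood in all 12 alternatives (adjusted p at most 0.012). In the PMA libraries FCGR3B itself reached 0.526 CPM at most. Natural killer cell markers summed to 65.8 to 89.7 CPM in shUHRF1, 67.2 to 88.1 in shDNMT1 and 182 to 231 in shDNMT3B, against 74.6 to 80.2 CPM in shNC, of which NCAM1 gave 41.0 to 177 CPM. GNLY, one of these markers, was likewise above shNC in each hairpin line: it had 21.3 and 10.2 CPM in shUHRF1, 35.2 and 20.3 in shDNMT1 and 46.6 and 23.9 in shDNMT3B, against 7.67 and 5.85 CPM in shNC. Its part in the FCGR3A result was not tested, and KLRD1 and PRF1 stayed at 0.113 CPM or less in these libraries.

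FCAR had 11.2 and 13.6 CPM in shDNMT1 and 9.94 and 11.4 CPM in shDNMT3B, against 27.3 and 31.8 CPM in shNC. It was lower by -1.25 (SE 0.351, adjusted p = 0.0312) in shDNMT1 and by -1.47 (SE 0.355, adjusted p = 0.0122) in shDNMT3B, and its groups did not overlap those of shNC. Both calls rest on the full set of libraries. The shDNMT1 call was lost without any 1 of the 4 libraries compared (-1.39 to -1.12, adjusted p between 0.0913 and 0.161), and the shDNMT3B call without shNC replicate 2, shDNMT3B replicate 1 or shDNMT3B replicate 2 (-1.57 to -1.36, adjusted p between 0.0611 and 0.1). In cells labelled shUHRF1 FCAR had 65.4 and 66.7 CPM, against 27.3 and 31.8 CPM in shNC, a log2 difference of 1.16 (SE 0.343, adjusted p = 0.0899). Under the block it was called there (1.17, adjusted p = 6.28e-05), 1 of 5 alternatives of 12 that called it.

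With the block 4 of 7 members were called in shUHRF1 (15.2% of all genes), 4 in shDNMT1 (31.4%) and 5 in shDNMT3B (39.9%). In shUHRF1 all 4 were higher, FCGR2B (0.93, adjusted p = 0.00265), FCGR3A, FCER1G (1.00, adjusted p = 8.95e-06) and FCAR, where the fit without the block gave an adjusted p of 0.113 for FCGR2B and 0.247 for FCER1G. FCGR1A was higher by 1.32 in shDNMT1 (adjusted p = 4.74e-07) and by 1.34 in shDNMT3B (adjusted p = 3.57e-07) under the block, beside 1.28 (adjusted p = 0.144) and 1.31 (adjusted p = 0.113) without it, and 4 of 12 alternatives called it in each line. Its PMA libraries had 70.2 and 49.3 CPM in shDNMT1 and 73.9 and 47.9 CPM in shDNMT3B, against 30.9 and 18.1 CPM in shNC, and did not overlap. The other block calls were FCGR2B, lower in shDNMT1 (-0.67, adjusted p = 0.0192), and FCGR2A (0.39, adjusted p = 0.0214) and FCER1G (0.40, adjusted p = 0.0156), higher in shDNMT3B, beside the FCGR3A and FCAR calls already given. FCGRT was called in none of these fits, with log2 fold changes of 0.26, -0.08 and -0.15 in shUHRF1, shDNMT1 and shDNMT3B (SE 0.264, adjusted p = 0.712, 0.899 and 0.736 without the block).

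**Figure D4:**
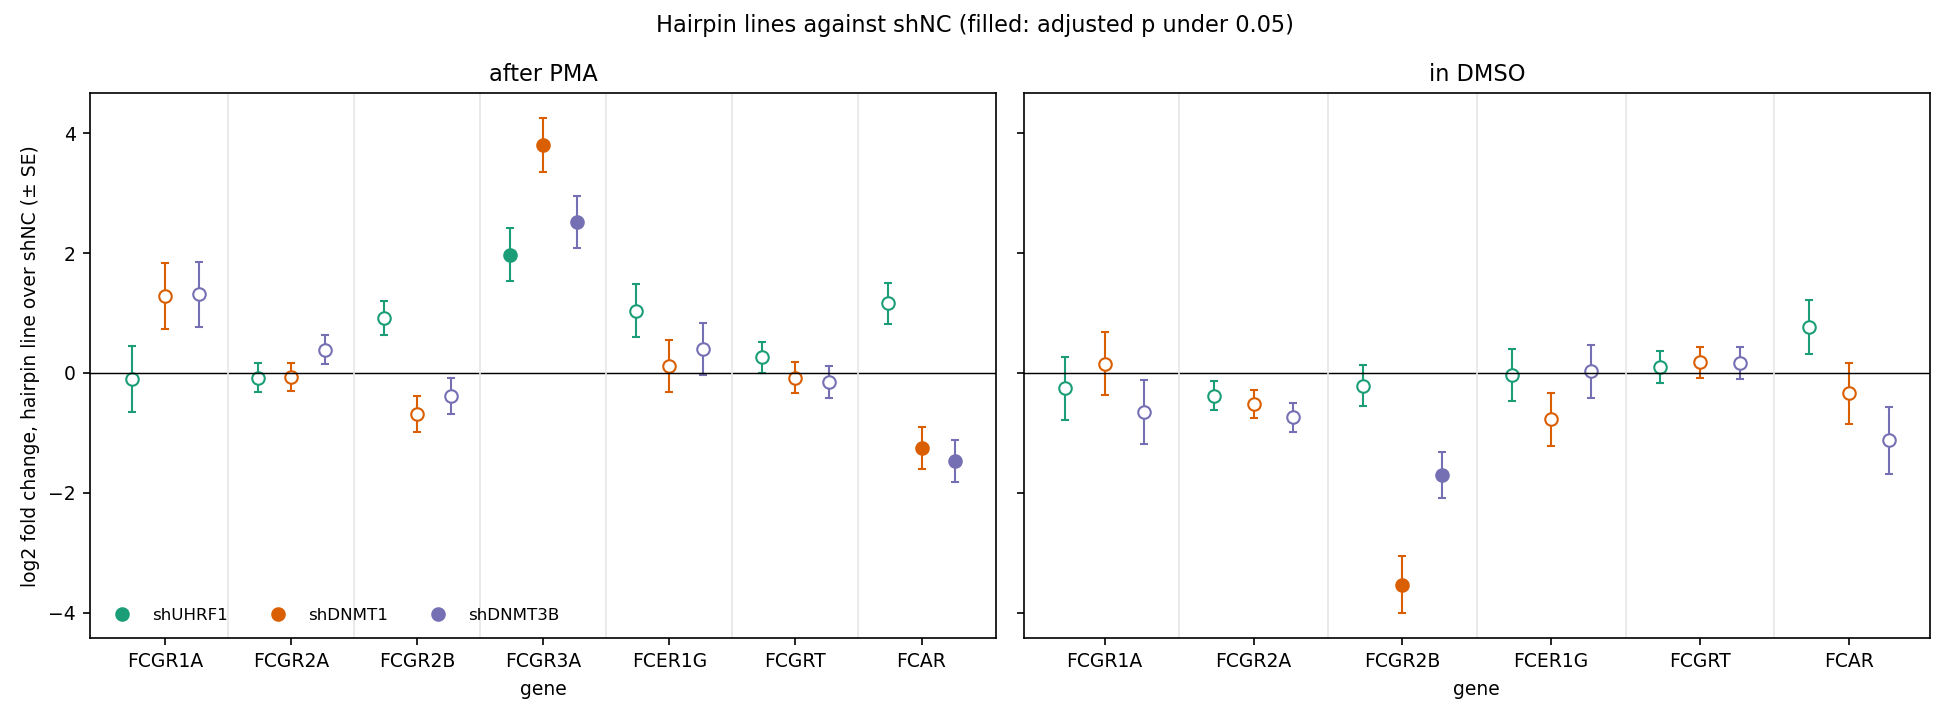
Log2 fold change of the hairpin lines over shNC after PMA (left) and in DMSO (right), with bars of 1 SE from edgeR, filled where the adjusted p was under 0.05. FCGR3A is drawn after PMA alone. FCGR3A lies at 1.97 to 3.80 after PMA, and FCGR2B at -3.53 in shDNMT1 and -1.71 in shDNMT3B in DMSO.

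The difference of the PMA response between each hairpin line and shNC was tested as an interaction. It was called for 0 of 7 members in shUHRF1 (0.848% of all genes), for FCGR2B in shDNMT1 (6.71%) and for 0 in shDNMT3B (6.77%). At an unadjusted p under 0.05 there were 2 members in shUHRF1 (FCGR2B and FCGR3A), beside 11.9% of all genes, and 4 in shDNMT3B (FCGR1A, FCGR2A, FCGR2B and FCGR3A), beside 19.7%. DESeq2 called 0 members in shUHRF1 (3.10% of all genes) and 2 in shDNMT3B (10.2%). FCGR2B rose more in shDNMT1 by 2.85 on the log2 scale (SE 0.578, adjusted p = 0.00965). That difference is made of a DMSO level lower by -3.53 and a PMA level of -0.68 (SE 0.297, adjusted p = 0.152), both against shNC, and it was lost without DMSO replicate 1 of shDNMT1, whose FCGR2B value stands on 2 counts (2.37, adjusted p = 0.076). With the block 3 members were called in shUHRF1 (8.48% of all genes), 4 in shDNMT1 (18.6%) and 4 in shDNMT3B (19.5%), FCGR3A among them in each line. The fitted difference of FCGR3A is not given, since it rests on DMSO groups of 0 counts in the hairpin lines and 3 in shNC. All 3 stood in the shNC library with globin reads, and the FCGR3A calls between responses carry the same limit. In shDNMT3B the response of FCGR1A differed by 1.96 (SE 0.762) and that of FCGR2A by 1.13 (SE 0.336) on the log2 scale, with an adjusted p of 0.165 and 0.0654 without the block, and 2.55e-07 and 5.91e-05 with it. In shDNMT1 FCGR1A differed by 1.13 (SE 0.757, adjusted p = 0.479, and 2.49e-04 with the block). The gamma chain FCER1G differed by 1.08 (SE 0.615) in shUHRF1 and 0.89 (SE 0.616) in shDNMT1, with an adjusted p of 0.541 and 0.499, and of 8.23e-04 and 0.00143 with the block. FCGR2B differed by 1.13 (SE 0.446) in shUHRF1 and by 1.32 (SE 0.485) in shDNMT3B, with an adjusted p of 0.325 and 0.141, and of 0.0423 and 0.0202 with the block. FCGRT and FCAR were called for no difference of response in either fit.

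Of 19 further Fc receptor genes 11 could be tested. After PMA 6 were called higher and 4 lower in shUHRF1 (29.4% and 25.5% of all genes), 6 and 3 in shDNMT1 (28.6% and 24.1%), 6 and 2 in shDNMT3B (25.2% and 19.7%), and 5 and 4 in shNC (28.4% and 26.0%). FCRLA, an intracellular Fc receptor-like protein of B cells, had 42.5 and 31.5 CPM in PMA, against 0.105 and 0.159 CPM in DMSO, in shNC (log2 fold change 8.06, adjusted p = 2.29e-08). FCMR, the receptor for IgM, had 22.1 and 20.1 CPM in PMA, against 0.368 and 0.106 CPM in DMSO (6.43, adjusted p = 1.23e-07). FCRLA was higher in shUHRF1 than in shNC after PMA (1.20, adjusted p = 0.0346). Neither gene overlapped between treatments in any line, and the B cell markers summed to at most 1.31 CPM in PMA and 2.80 CPM in DMSO. TRIM21, the antibody receptor of the cytosol, was called higher in each line, by between 1.39 in shNC and 1.86 in shDNMT3B, and was lower in shDNMT3B than in shNC in DMSO (-0.85, adjusted p = 0.0403). Its DMSO values in shUHRF1 (-0.76, adjusted p = 0.121) and shDNMT1 (-0.70, adjusted p = 0.0972) were close to this. Both were called under the block (adjusted p = 6.18e-05 and 9.66e-05). FCER2 (CD23), the low-affinity IgE receptor, had 14.6 and 10.6 CPM in shDNMT1 and 19.1 and 12.8 CPM in shDNMT3B, against 2.15 and 1.73 CPM in shNC, all after PMA (log2 fold changes 2.69 and 3.03, adjusted p = 0.00173 and 7.12e-04). PIGR, which carries polymeric IgA and IgM across epithelia, was higher in shDNMT3B after PMA by 1.53 (adjusted p = 0.0272) and stayed at 3.43 CPM or less. MS4A2, the beta chain of the IgE receptor, had 0.423 to 1.82 CPM in DMSO and 0 counts in all 8 PMA libraries, and FCAMR was called lower in shUHRF1, shDNMT1 and shNC. FCRLB had 5.09 and 3.75 CPM in PMA, against 0.339 and 0.143 CPM in DMSO, in shUHRF1, where it was called, and with the block it was called in shDNMT1 too (adjusted p = 0.0312). FCGR1BP and FCGR1CP were lower after PMA in shNC (-3.56 and -4.37), and after PMA both were higher in shDNMT1 (2.03 and 3.10) and in shDNMT3B (2.11 and 2.45) than in shNC (adjusted p at most 0.013). The PMA response differed from that of shNC for FCGR1CP in shDNMT1 (3.455, adjusted p = 0.0094), and for FCGR1CP (3.11), FCGR1BP (2.95) and FCAMR (3.10) in shDNMT3B (adjusted p between 0.0136 and 0.0347). Of all genes 6.71% in shDNMT1 and 6.77% in shDNMT3B were called for this difference. With the block 4, 5 and 7 of the 11 were called against shNC after PMA in shUHRF1, shDNMT1 and shDNMT3B, beside 1, 3 and 4 without it, and 1, 1 and 2 in DMSO, beside 0, 0 and 1. Of all genes the block called 15.2%, 31.4% and 39.9% after PMA and 11.5%, 13.6% and 18.7% in DMSO, beside 3.69%, 14.8% and 20.3%, and 1.31%, 3.96% and 4.51%, without it. FCGR2C was called higher in shDNMT1 (3.16, adjusted p = 0.0148) and shDNMT3B (2.39, adjusted p = 0.0323), at 1.43 CPM or less. FCER1A, the alpha chain of the IgE receptor, had 2 counts in the series, FCRL1, FCRL2, FCRL3, FCRL4, FCRL5 and FCRL6 had 0 to 25, and FCGR3B, with 43, was not tested either.

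Downstream of the receptors, 61 of 63 genes of Fc gamma receptor signaling and phagocytosis were tested, and after PMA 33 were called higher and 6 lower in shUHRF1, 36 and 5 in shDNMT1, 31 and 5 in shDNMT3B, and 28 and 11 in shNC. Of all genes 25.2% to 29.4% were called higher and 19.7% to 26.0% lower in these lines. The median log2 fold change of the list was 0.63, 0.86, 0.56 and 0.41 in that order, with that of all genes within 0.02 of 0. In shNC the smallest adjusted p belonged to PIK3R5, a PI3-kinase regulatory subunit (4.45), the Src-family kinase FGR (5.03), the ubiquitin ligase CBLB (4.26), SRC (4.08) and the sphingosine kinase SPHK1 (5.63), each at most 2.25e-08. FGR had 93.1 and 104 CPM in PMA, against 3.47 and 2.55 CPM in DMSO, in shNC. SYK, the kinase that the gamma chain recruits (picked after its values were seen), had 74.0 and 84.2 CPM in PMA, against 126 and 151 CPM in DMSO, in shNC (-0.81, adjusted p = 0.0157), and it was not called in the other lines (adjusted p between 0.177 and 0.749). In DMSO the genes called against shNC included FYN (-1.71) and FGR (0.99) in shDNMT1, and LCP2 (-0.73), PLCG2 (-0.74), PIK3CG (-0.85), PTPN6 (-0.69) and ARF6 (-0.68) in shDNMT3B. Of all genes 3.96% and 4.51% were called in these 2 comparisons. After PMA 4 were called higher and 2 lower in shUHRF1 (3.69% of all genes in either direction), 11 and 4 in shDNMT1 (14.8%), and 5 and 10 in shDNMT3B (20.3%). The PMA response differed from that of shNC for FGR in shUHRF1 (-1.46), for 8 genes in shDNMT1, and for FYN (-1.67), CSK (0.88), PIK3CB (-0.83), CBLB (-1.40) and DOK2 (0.85) in shDNMT3B. Beside these stood 0.848%, 6.71% and 6.77% of all genes in that order of lines. The adjusted p was at most 0.0415 for each call against shNC in DMSO or between responses that is named here. With the block 16, 34 and 34 of the 61 were called against shNC after PMA in shUHRF1, shDNMT1 and shDNMT3B (15.2%, 31.4% and 39.9% of all genes), 12, 14 and 26 in DMSO (11.5%, 13.6% and 18.7%), and 14, 24 and 21 for the difference of the PMA response (8.48%, 18.6% and 19.5%).

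Beside FCGRT, 18 of 19 genes of FcRn assembly and endosomal recycling were tested, and after PMA 11 were called higher in shUHRF1, 7 in shDNMT1, 8 in shDNMT3B and 7 in shNC, with 1 called lower in shDNMT1 and 0 in the other lines. Of all genes 29.4%, 28.6%, 25.2% and 28.4% were called higher in that order, and 19.7% to 26.0% lower. The list's median log2 fold change was 0.81, 0.67, 0.65 and 0.53 in that order. B2M, the light chain of FcRn, had 10100 and 7320 CPM in PMA, against 1760 and 1590 CPM in DMSO, in shNC (2.38, adjusted p = 3.54e-05). The endosomal GTPases RAB5A (1.44) and RAB7A (1.04), the myosin MYO5A (1.37) and the trafficking protein VPS45 (0.47) were also called higher in shNC. B2M was lower in shDNMT3B than in shNC in DMSO, with 743 and 569 CPM, against 1760 and 1590 CPM (-1.35, adjusted p = 0.0246), where FCGRT had 188 and 148 CPM, against 154 and 145 CPM. After PMA the genes called against shNC were CALR (1.22), PDIA3 (0.99), RAB11B (-0.53), RAB11FIP1 (-0.62) and RAB7A (-0.68) in shDNMT1, and RAB11FIP1 (-0.63), RAB7A (-0.58) and MYO5A (-0.995) in shDNMT3B, with 0 called in shUHRF1 (14.8%, 20.3% and 3.69% of all genes). The block raised these calls to 5, 8 and 8 of 18 after PMA in shUHRF1, shDNMT1 and shDNMT3B (15.2%, 31.4% and 39.9% of all genes), and gave 4, 3 and 5 in DMSO (11.5%, 13.6% and 18.7%).

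Among members, FCER1G and FCGRT had the most similar profiles over the 16 libraries, with a root mean square difference of 0.56 on the log2 scale after centring, followed by FCGR1A and FCGR2A at 0.58, while FCGR2A and FCGR3A differed most, at 3.69. Each member was then set against 13627 other tested genes with a mean of at least 1 CPM. Closest to FCGR1A were HVCN1 (0.368), PLTP (0.398) and CEBPA (0.403), and closest to FCGR2A were PAFAH1B3 (0.185), PAICS (0.193) and ABHD14A (0.211). FCGR2B came nearest to LY6E (0.556), IFIT5 (0.601) and TRIM34 (0.618), and FCGR3A to SLC28A3 (0.677), with AQP9 at 0.699. For FCER1G the nearest were S100A11 (0.253) and GSTO1 (0.268), for FCGRT they were DHRS1 (0.152), ZBTB7A (0.156) and EFHD2 (0.158), and for FCAR they were LTBP2 (0.558), SHC3 (0.596) and ABCA13 (0.597). Each of the 7 members lay closer to its nearest gene than to any other member. A search over 13627 genes makes this likely beforehand, so it says nothing on likeness within the family. The profiles of FCGR2B, FCGR3A and FCAR, all of low count in DMSO, had no neighbour closer than 0.556. These are likenesses over libraries that share depth and treatment, and they carry no test.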

How the data were processed

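Per the labels and the study's methods, libraries were made from poly(A) RNA with a stranded kit and sequenced as 150 bp pairs. The authors used STAR 2.4.0b for alignment to hg38. HTSeq 0.6.1p1, Cufflinks 2.1.1 and edgeR stand in the submitters' notes on processing. The annotation release, the treatment of reads that fit near-identical genes and the strand setting are not given in the sources used here. The deposited table holds the authors' whole-number gene counts, not normalized. In 12 of 16 samples the description, which is a column name, disagrees with the title, so columns were assigned to groups by their own names. Those without PMA in the name were read as DMSO. Wild-type cells were not analysed here.

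Counts were filtered with filterByExpr (minimum count 10, total 15), scaled by TMM and tested in 1 robust quasi-likelihood fit of 8 groups with 8 residual degrees of freedom (edgeR 4.0.16, R 4.3.3). P-values were adjusted by the Benjamini-Hochberg method across the 16503 genes tested, and a gene was called under 0.05 with no fold limit. The code was tested on simulated data. Levels are CPM of the TMM-scaled library, and per-length levels divide by the summed exons of GENCODE 44. SE is the absolute log2 fold change divided by the square root of F. Intervals and floors cover counting error only. The deviations of same-numbered libraries from their group means correlated between 0.22 and 0.508 in 28 of 28 pairs of groups, so the numbers were taken as pairs, and the fit with the replicate number as a block (common dispersion 0.0115, against 0.0439 without it) is given where it changed a member's call and, for the lists against shNC, as counts.

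All 7 members were named, and of the pathway lists the tested Fc receptors, up to 5 genes with the smallest adjusted p for PMA in shNC, and genes called against shNC or between responses where 5 or fewer were; some genes that this rule names are not reported here. The members, lists and tests were chosen with earlier results of these data known. Figures were drawn with matplotlib 3.10.9. Alternatives were DESeq2 1.42.0, upper-quartile scaling, no mitochondrial genes, no filter, only the groups compared, an exact test after DEGES scaling, the block, summed paralogs, a fold limit on the counts of calls and each library left out.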

Additional observations from a re-analysis of the deposited data

Results flagged for a closer look

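The PMA response of FCGR2B differed between cells labelled shDNMT1 and shNC by 2.85 on the log2 scale (SE 0.578, edgeR adjusted p = 0.00965), the single interaction among the 7 members that passed the threshold. It rose by 5.21 in shDNMT1 and by 2.36 in shNC. In shDNMT1 the DMSO libraries hold 2 and 5 counts of FCGR2B, against 45 and 39 counts in shNC.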

How the results depend on the processing

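No call reversed its direction under any alternative. The count of Fc receptor genes called for PMA against DMSO, 6 or 7 of 7, stayed within 1.5 times in every line. In shDNMT3B it reached that limit without DMSO replicate 2 or PMA replicate 1, where FCER1G (1.465 and 1.321) and FCGRT (0.762 and 0.734) fell out. In fits of all libraries compared, between 27.5% (no filter, shDNMT3B) and 67.9% (block, shUHRF1) of all genes were called for PMA. The replicate block moved the count of calls against shNC in DMSO to 3 in shDNMT1 and 3 in shDNMT3B (1 each without it). It moved the count after PMA to 4 in shUHRF1 (1 without it), 4 in shDNMT1 (2) and 5 in shDNMT3B (2), and the count for the difference of the PMA response to 3 (0), 4 (1) and 4 (0) in that order of lines. Apart from the calls named in the report it changed none of the members' calls. With no filter on low counts there were 2 and 2 calls in DMSO in shDNMT1 and shDNMT3B (3.80% and 4.30% of 28053 genes), 4 after PMA in shUHRF1 (841 genes in all), and 3 and 3 for the response in shDNMT1 and shDNMT3B (5.12% and 5.25%). DESeq2 gave 2 after PMA in shUHRF1 (6.88% of all genes) and 2 and 2 for the response in shDNMT1 and shDNMT3B (9.64% and 10.2%), and the exact test after DEGES gave 2 after PMA in shUHRF1 (6.77%). Fitting only the libraries compared left 0 and 0 calls in DMSO in shDNMT1 and shDNMT3B (0.836% and 0.687%), and after PMA in shUHRF1 it put FCAR in the place of FCGR3A as the 1 call (1.31%). With paralogs summed there were 0 in DMSO in shDNMT3B (4.50%), 0 after PMA in shUHRF1 (3.66%) and 1 in shDNMT3B (20.3%), and 2 and 1 for the response in shDNMT1 and shDNMT3B (6.71% and 6.77%). With each library left out in turn the counts were 0 to 0 in DMSO in shDNMT3B, after PMA 0 to 0 in shUHRF1, 1 to 1 in shDNMT1 and 1 to 2 in shDNMT3B, and for the response 0 to 2 in shDNMT1 and 0 to 1 in shDNMT3B. Of all genes these fits called 1.69% to 2.07%, 0.654% to 1.09%, 6.23% to 8.92%, 9.23% to 9.79%, 3.75% to 4.77% and 3.92% to 4.94% in that order. A log2 fold limit of 1 for PMA left 7, 5, 4 and 7 calls in shUHRF1, shDNMT1, shDNMT3B and shNC. It took out FCGRT in shDNMT1 (0.98), and FCGR2A (-0.77) and FCGRT (0.92) in shDNMT3B. The smaller limit set for lines against shNC changed no count. The share of all genes that passes these limits is not given here, so these counts have no background to be read against. The cause was not tested.

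Under upper-quartile scaling the median log2 fold change of all genes for PMA against DMSO was -0.312 in shUHRF1, -0.254 in shDNMT1, -0.219 in shDNMT3B and -0.285 in shNC, beside -0.005, 0.006, 0.02 and -0.005 with TMM, and that of shDNMT3B against shNC after PMA was 0.168, beside 0.037. The uncalled FCGR1A response of shDNMT3B ranged between -0.783 and 0.039 over 12 alternatives, and that of shDNMT1, between -1.681 and -0.631, was called in 8 of 12. The responses of FCGR2B and FCAR in all 4 lines, and of FCGR2A in shUHRF1, shDNMT1 and shNC, were called in 12 of 12. With 2 libraries per group, and 0 to 84 counts per DMSO group for FCGR2B, FCGR3A and FCAR, depth limits their folds. FCGR2B held 84 in shNC and 80 in shUHRF1, against 7 in shDNMT1 and 26 in shDNMT3B.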
